A study of Mus musculus with 21 samples.

Results

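Immediate early genes are the first genes a neuron transcribes after it fires, and 10 of them were followed here in the forebrain RNA of mice that carry human APOE with or without mutant human tau. The genes were Fos, Fosb, Junb, Egr1, Egr2, Arc, Npas4, Nr4a1, Ier2 and Dusp1. They were chosen by symbol, and each symbol matched 1 Ensembl identifier. All 10 of 10 were present among the 55401 genes of the count table and the 37538 genes of the FPKM table, where FPKM is a level scaled for transcript length and library size. All 10 passed the filter on low counts in every comparison.

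Transcription of these genes starts within minutes of calcium entry through synaptic receptors and voltage-gated channels, needs no new protein synthesis, and fades within hours. Kinases of the calcium/calmodulin and MAP kinase pathways carry the signal to CREB, SRF and MEF2, the factors that sit on the promoters beforehand. The products are mostly transcription factors that start a later wave of synaptic genes, so that their messenger RNA is widely used as a record of recent activity in cortex, hippocampus and striatum, and several of them also respond to stress, growth factors and injury in glia and vessels.

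Parental mice formed the groups E2H, E3H and E4H, 3 mice in each, in which human APOE2, APOE3 or APOE4 takes the place of the mouse Apoe gene on both chromosomes. Their counterparts PS/E2H, PS/E3H and PS/E4H, with 4 mice in each, carried the same APOE alleles and the PS19 transgene, a human tau cDNA with the P301S mutation driven by the mouse prion promoter. No treatment is given in the labels. Parental mice were taken at 9 to 10 months and PS19 mice when both hindlimbs were paralyzed, so the transgene cannot be told apart from paralysis or from the age reached. The PS19 line came from a B6/C3H background and was crossed to APOE mice kept on C57BL/6, so strain background cannot be told apart from the transgene either. Prion promoter transgenes are expressed beyond the forebrain, in spinal cord among other sites. The parental mice carried human APOE as well, so no group here has mouse Apoe.

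In the GENCODE M21 annotation of GRCm38, the 10 genes are protein-coding and lie on 8 chromosomes, with Junb and Ier2 both on chromosome 8 and Arc and Nr4a1 both on chromosome 15. Fos spans chr12:85473890-85477273 on the plus strand, Egr1 chr18:34859823-34864984 (plus), Egr2 chr10:67535475-67542188 (plus) and Nr4a1 chr15:101254269-101274795 (plus). On the minus strand lie Fosb at chr7:19302696-19310051, Junb at chr8:84974484-84978718, Arc at chr15:74669083-74672570, Npas4 at chr19:4984355-4990316, Ier2 at chr8:84661331-84662852 and Dusp1 at chr17:26505590-26562128. Fosb lies 0.386 Mb from Apoe, the locus that was engineered in every group. The span of Junb shares 351 bases with Prdx2 and that of Dusp1 shares 640 bases with Ergic1, both on the opposite strand. Dusp1 also shares 956 bases with the pseudogene Gm8225 on the opposite strand and, on its own strand, 1853 bases with the sense intronic transcript AC122252.1 and 227 bases with the pseudogene AC122252.4, which strand cannot separate. The libraries were stranded, but whether the counting used strand is not given in the sources used here.

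The study's methods describe the mice as male except for a few females in the E4H, PS/E2H and PS/E4H groups, whereas the labels give no sex. In the libraries, 17 of 21 mice held 12188 to 36358 counts of Xist, which is transcribed from the inactive X chromosome of females, and at most 34 counts over 4 Y-linked genes (Ddx3y, Kdm5d, Uty and Eif2s3y). The other 4 mice, E4H 3, PS/E2H 2, PS/E4H 1 and PS/E4H 4, held 164 to 189 counts of Xist and 5866 to 10256 Y-linked counts. The counts thus go against the stated sexes, and the exceptions fall in the same groups with the sexes exchanged. Only 1 parental mouse was therefore among those with Y-linked counts, against 3 PS19 mice, and the results on tau below are also given for the 17 mice without Y-linked counts. Total counts were 59265459 to 75932183 per mouse, with a median of 63751715. Gfap, the astrocyte filament gene that marks gliosis, rose by 2.68 on the log2 scale in PS19 mice, and Prnp, whose promoter drives the transgene, rose by 0.90. Markers of cerebellum, which a forebrain dissection should lack, summed to 1.04 to 12.4 CPM (counts scaled to library size) per mouse, against 178 to 342 CPM for the 5 markers of forebrain neurons.

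Promoter sequences were available for 7 of the 10 genes (not for Egr1, Arc and Ier2) in a RefSeq table of the GRCm38.p6 build, and are shown as a description. Their part in the levels of the genes was not tested. Within the 250 bases before the transcription start, the short cAMP response element TGACG, on either strand (CGTCA), was present in 7 of 7 genes (at 3 of the 5 listed starts of Egr2), against 17.8% of all 32851 windows of that length. The full element TGACGTCA, in which both short forms overlap, was found in 1 of 7 (Dusp1) and in 1.55% of all windows. The CArG box of serum response elements was found in 1 of 7 (Egr2, at 4 of its 5 listed starts) and in 1.47% of all, the EGR motif GCGNGGGCG on either strand in 2 of 7 (Fosb and Nr4a1) and 4.7% of all, and the AP-1 motif TGANTCA in 0 of 7 and 6.75% of all. A match describes the letters and not occupancy by a factor. The windows of Npas4, Nr4a1 and Dusp1 lie inside the gene spans given above, so their RefSeq starts are not the outer ends of those spans. Shown 5′ to 3′ on the strand of the gene, with TGACG and CGTCA in capitals, are Fos (chr12:85473640-85473889, plus strand), the best known member, Npas4 (chr19:4989972-4990221, minus), Nr4a1 (chr15:101266596-101266845, plus), with the most matches, and Dusp1 (chr17:26508473-26508722, minus), the one with the full element.
Fos: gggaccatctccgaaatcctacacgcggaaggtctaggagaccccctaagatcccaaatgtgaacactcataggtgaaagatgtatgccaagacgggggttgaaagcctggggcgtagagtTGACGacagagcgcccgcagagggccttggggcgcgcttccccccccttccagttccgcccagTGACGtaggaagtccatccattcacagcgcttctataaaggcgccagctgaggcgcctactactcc
Npas4: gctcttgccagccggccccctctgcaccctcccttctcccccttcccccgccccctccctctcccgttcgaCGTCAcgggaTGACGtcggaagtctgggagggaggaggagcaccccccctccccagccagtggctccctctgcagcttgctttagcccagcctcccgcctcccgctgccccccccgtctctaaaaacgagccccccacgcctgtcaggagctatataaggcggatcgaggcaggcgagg
Nr4a1: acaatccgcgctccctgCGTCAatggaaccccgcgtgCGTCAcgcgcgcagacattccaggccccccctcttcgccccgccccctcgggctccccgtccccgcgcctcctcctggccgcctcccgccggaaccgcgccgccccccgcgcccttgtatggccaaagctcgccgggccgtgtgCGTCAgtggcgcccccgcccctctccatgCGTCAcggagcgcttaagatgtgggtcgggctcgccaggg
Dusp1: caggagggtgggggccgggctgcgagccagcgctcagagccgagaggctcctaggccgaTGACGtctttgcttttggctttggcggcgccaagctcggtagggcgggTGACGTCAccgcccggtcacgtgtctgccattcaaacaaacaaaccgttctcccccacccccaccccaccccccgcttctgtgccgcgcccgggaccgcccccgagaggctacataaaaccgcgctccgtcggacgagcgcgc

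Levels were compared between genes on the FPKM scale, per length. Arc, which encodes a cytoskeleton-associated protein of dendrites that controls AMPA receptor uptake, had the highest median over the 21 mice at 33.7 FPKM (13.3 to 60.2), and Egr1, a zinc finger transcription factor, followed at 31.5 (13.1 to 51). The order of these top 2 was not stable, since Arc was above Egr1 in 9 of 21 mice. The nuclear receptor Nr4a1 (median 19.2 FPKM) and Junb (18.6), a partner of Fos proteins in the AP-1 complex, formed the next pair, with Nr4a1 above Junb in 7 of 21 mice. Dusp1, a phosphatase that switches MAP kinases off, and Fos, which completes AP-1 dimers with JUN proteins, stood at 8.72 and 8.6 FPKM, and Dusp1 was the higher in 11 of 21. Ier2 (3.93 FPKM), a small nuclear protein, Npas4 (2.59), a neuron-specific factor that responds to calcium, Fosb (1.74) and Egr2 (1.64) were the lowest. Egr1 exceeded Nr4a1, Junb exceeded Dusp1 and Fos exceeded Ier2 in 21 of 21 mice. Raw counts were 85 to 18121 per gene and mouse, so counting error was small beside the spread between mice.

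Pooled over the 6 groups, differences between mice of one group were large for all 10 genes and were shared by them. In TMM-normalized CPM, used for one gene between mice, the within-group SD of log2 CPM was 0.46 to 0.95 for the members, with a median of 0.61, against a median of 0.25 over all 22863 genes tested and 0.14 over the 12355 genes at or above the level of the lowest member. Ier2 and Egr1 spread least and Egr2 most. The groups were unequal, with SDs of 0.05 (Egr1) to 0.38 (Npas4) in E3H and 0.59 (Ier2) to 1.44 (Egr2) in PS/E3H. PS/E3H 1 held the highest level of Fos, Fosb, Egr2 and Npas4, E2H 2 that of Junb, Arc, Nr4a1, Ier2 and Dusp1, and E3H 1 that of Egr1. The lowest levels of Fos, Egr2, Arc and Dusp1 were in E4H 3, those of Fosb, Junb, Egr1 and Ier2 in PS/E3H 2, that of Npas4 in PS/E4H 3 and that of Nr4a1 in PS/E2H 3. Averaged over the 10 genes and expressed in SD of each gene over the 21 mice, E2H 2 stood 1.51 and PS/E3H 1 stood 1.45 above the mean, while PS/E3H 2 stood at -1.68, E4H 3 at -1.4, PS/E2H 1 at -1.29, PS/E4H 3 at -1.14, PS/E3H 3 at -1.09 and PS/E2H 3 at -1.01. In each of these 6 low mice, 0 of 10 genes were above their own mean. Low mice thus occurred in 4 of the 6 groups, and among the 9 parental mice only E4H 3 was one.

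**Figure D1:**
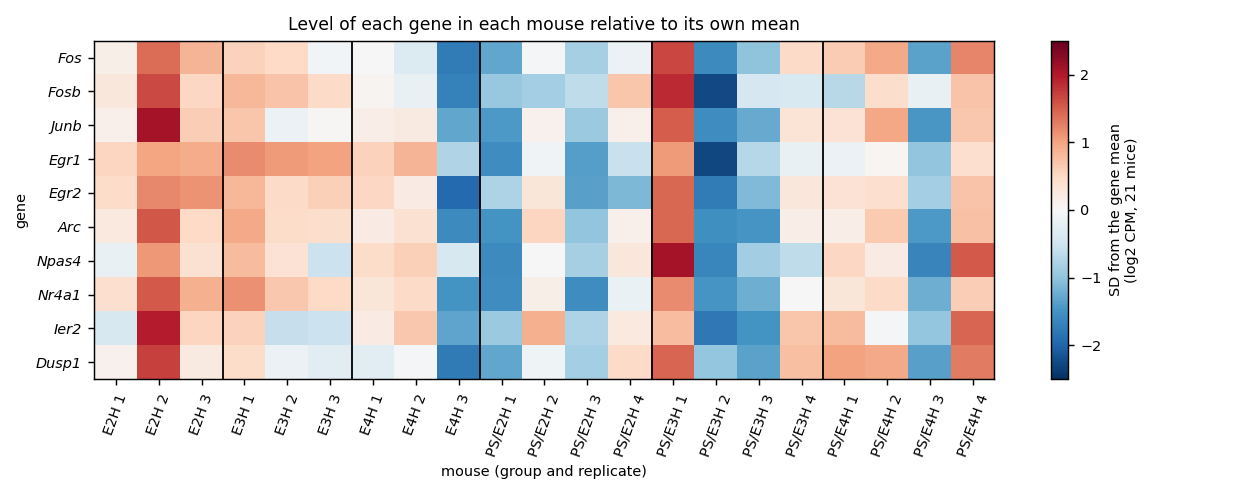
Heat map of the 10 genes (rows) in the 21 mice (columns, ordered by group and replicate), coloured by the distance of log2 CPM from the mean of the gene over all mice, in SD. Whole columns share a colour: E2H 2 and PS/E3H 1 are high, and E4H 3, PS/E2H 1, PS/E2H 3, PS/E3H 2, PS/E3H 3 and PS/E4H 3 are below the mean of the gene for all 10 genes.

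After removal of the group means, Pearson correlations between the members over the 21 mice were 0.65 to 0.99 in the 45 pairs, with a median of 0.89, and Spearman rho had a median of 0.87 and a lowest value of 0.57. All 45 pairs had an adjusted p under 0.05 (two-sided permutation test within groups, 100000 permutations, Benjamini-Hochberg over 45 pairs, largest adjusted p = 0.0198). By Spearman correlation 45 of 45 pairs passed as well. Pairs of other genes were not put through this permutation test, so no share over all gene pairs can be set beside the 45. Arc and Nr4a1 were closest (r = 0.99, rho = 0.98, adjusted permutation p = 3.75e-05 for r), followed by Junb and Arc (r = 0.98, rho = 0.95). Fosb was the loosest member, with a median r of 0.76 with the other genes, and its pair with Ier2 had the lowest r (0.65, rho = 0.66, adjusted permutation p = 0.0101). Without the 2 mice farthest from the median of the first gene, r had a median of 0.85 and a minimum of 0.42, which was that of Fosb with Egr2. The median r was 0.9 in the 9 parental mice and 0.9 in the 12 PS19 mice taken separately.

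The genes outside the 10 whose levels ran closest to them, by the median r with the members over the same 21 mice, were Btg2 (0.89), an antiproliferative early gene, 1700016P03Rik (0.88), a noncoding transcript that hosts microRNAs of the miR-212/132 cluster, Dusp6 (0.88), a MAP kinase phosphatase, Klhl21 (0.87), Sik1 (0.87), a salt-inducible kinase, Egr4 (0.87), Ccn1 (0.84), a secreted matrix protein, and Arl4d (0.83). Over the 22853 other genes the median of this value was -0.017. Of these 8 genes, 5 (Btg2, Dusp6, Sik1, Egr4 and Ccn1) belong to the list of other inducible early genes described further on.

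In all, 8 measures of the libraries were set against the 10 members in the same way, as 80 relations. None passed after adjustment. The summed CPM of the 8 neuron markers had r of 0.41 to 0.69 with the members (smallest adjusted permutation p = 0.333), and that of the 6 endothelium markers had r of -0.77 to -0.52, the strongest being Npas4 (r = -0.77, rho = -0.74, adjusted permutation p = 0.0992, r = -0.73 without the 2 farthest mice). Before adjustment, permutation p was under 0.05 for the endothelium markers with Npas4, Nr4a1, Egr1, Fos, Fosb, Arc and Junb. It was also under 0.05 for the neuron markers with Fosb, Ier2 and Npas4, and for no other relation. Without the 2 mice farthest on each measure the r of the neuron markers was 0.1 to 0.47 and that of the endothelium markers -0.73 to -0.32. Medians were -0.44 for astrocyte markers, -0.22 for microglia markers, 0.21 for hemoglobin and other blood genes, 0.29 for glucocorticoid response genes, -0.12 for the mitochondrial share and -0.01 for the total count.

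Egr1 was the one member that differed between PS19 and parental mice when the 3 lines were fitted together. In E2H mice it stood at 190.5, 226 and 222 CPM and in PS/E2H mice at 83, 149, 89.1 and 123 CPM. In E3H mice the levels were 246, 233 and 229 CPM, against 233, 62.4, 116 and 143 CPM in PS/E3H. In E4H mice they were 193, 215 and 114 CPM, against 145, 156, 105 and 181 CPM in PS/E4H. The E2H groups did not overlap, 3 of the 4 PS/E3H mice were below every E3H mouse while PS/E3H 1 lay within their range, and the E4H groups overlapped through E4H 3. Within lines, Egr1 fell by 0.66 on the log2 scale in PS19 mice (SE 0.18, 95% interval -1.02 to -0.29, edgeR quasi-likelihood test, Benjamini-Hochberg adjusted p = 0.00936), to 63.5% of the parental level. This was 1 of the 10 members, and 21% of all 22863 genes passed the same limit, while 9.63% of all genes passed and were lower. DESeq2 called the same 1 member. Among the 17 mice without Y-linked counts the difference in Egr1 was -0.86 (adjusted p = 0.00263), and with a term for Y-linked counts it was -0.69 (adjusted p = 0.0114). In bulk RNA, fewer cells that express a gene and less of its RNA per cell cannot be told apart.

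Nr4a1 was the other member whose 95% interval lay below 0. Its levels were 77.2, 134 and 97.3 CPM in E2H and 29.1, 67.4, 28.9 and 57.5 CPM in PS/E2H mice. They were 109.7, 87.3 and 79.9 CPM in E3H and 112, 30, 34.3 and 63.1 CPM in PS/E3H mice. In E4H mice they were 72.6, 79.5 and 29.8 CPM and in PS/E4H mice 72.6, 79.3, 34.2 and 84.6 CPM. The pooled difference was -0.56 (SE 0.26, 95% interval -1.10 to -0.02, edgeR adjusted p = 0.136) and did not pass over all 21 mice. It passed without E4H 3 (-0.70, adjusted p = 0.0446), without PS/E3H 1 (-0.71, adjusted p = 0.0443) and among the 17 mice without Y-linked counts (-0.85, adjusted p = 0.0306).

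The other 8 members did not pass in the pooled fit. Their log2 differences were -0.57 for Egr2, -0.35 for Arc, -0.24 for Junb, -0.20 for Fosb, -0.17 for Npas4, -0.10 for Fos, -0.08 for Ier2 and 0.04 for Dusp1. The intervals were wide, from -1.35 to 0.22 for Egr2 to -0.45 to 0.29 for Ier2, so a change of the size seen in Egr1 lies within the intervals of Egr2, Arc, Junb and Fos. Over the 10 members, 9 differences were below 0 and the median was -0.22, against -0.01 over all genes, and 2 had an unadjusted p under 0.05, where 32.2% of all genes did. Among the 17 mice without Y-linked counts, 10 of 10 were below 0 and the median was -0.40.

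**Figure D2:**
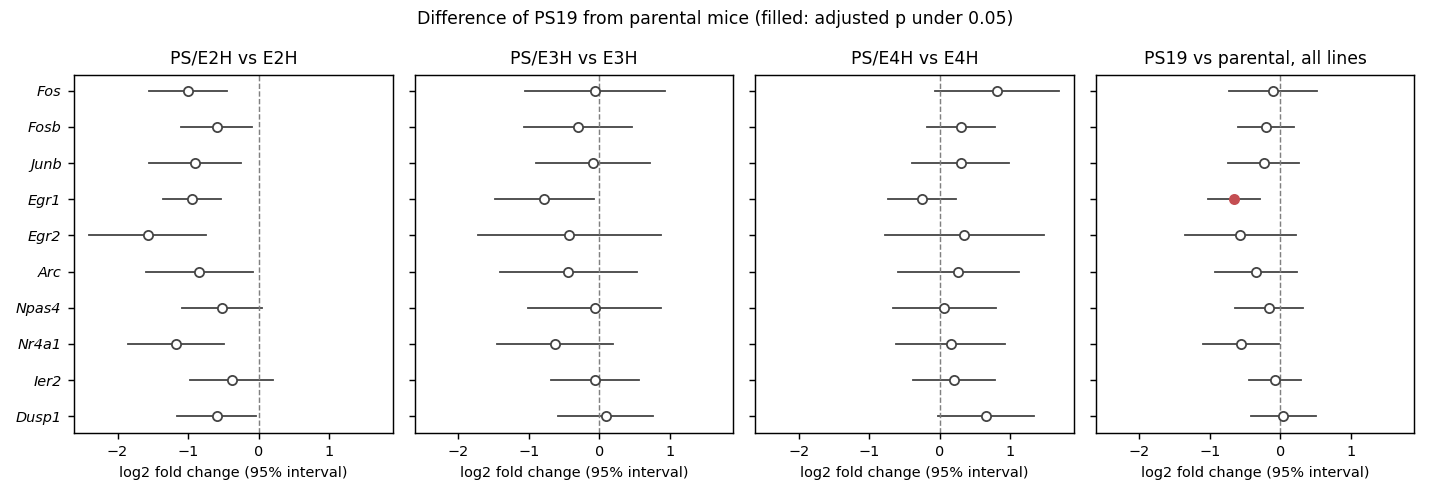
Log2 fold change of each gene with its 95% interval (horizontal axis) in PS/E2H against E2H, PS/E3H against E3H, PS/E4H against E4H and in the fit of all 21 mice within lines. All 10 points lie below 0 for PS/E2H, 9 of 10 for PS/E3H and 1 of 10 for PS/E4H, and the only filled point (adjusted p under 0.05) is Egr1 in the pooled fit, at -0.66.

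In PS/E2H against E2H all 10 members were lower, with a median log2 difference of -0.87 against -0.02 over all genes, and 8 of 10 had an unadjusted p under 0.05, where 10.7% of all 20617 genes did. After adjustment 0 of 10 passed in edgeR, 0.752% of all genes passing, while DESeq2 called 3 (Fos, Egr1 and Egr2). The largest differences were those of Egr2 (-1.58, SE 0.37, adjusted p = 0.108), a factor of myelinating Schwann cells that active neurons also induce, Nr4a1 (-1.17), Fos (-1.0) and Egr1 (-0.94, SE 0.18, adjusted p = 0.0555). Fos stood at 23.3, 43.4 and 33.1 CPM in E2H and 11.3, 21.1, 14.2 and 20.1 CPM in PS/E2H mice. Egr2 stood at 6.49, 10.9 and 10.3 CPM in E2H and 2.72, 5.79, 1.79 and 2.11 CPM in PS/E2H mice. The groups did not overlap for Egr1, Egr2, Fos and Nr4a1, 4 of 10 members, where 11.7% of all genes were separated in this way. Junb (-0.91), Arc (-0.84), Fosb (-0.60) and Dusp1 (-0.60) overlapped and had unadjusted p from 0.011 to 0.038 in edgeR, and Npas4 (-0.52) and Ier2 (-0.39) had 0.0705 and 0.173. Without E2H 2, the highest E2H mouse for all 10 members, 4 of 10 (Fos, Egr1, Egr2 and Nr4a1) had an unadjusted p under 0.05, and Junb stood at -0.49, Arc at -0.49, Dusp1 at -0.28 and Ier2 at -0.07. The unadjusted count was 5 without PS/E2H 1, 5 without PS/E2H 3 and 5 in the fit of all 21 mice. For these alternative fits, the share of all genes is not given here. Without PS/E2H 2, which carried Y-linked counts and had the highest Arc, Egr1, Egr2, Fos, Nr4a1 and Ier2 of its group, Egr1 (-1.12, adjusted p = 0.0204) and Egr2 (-2.06, adjusted p = 0.0154) passed.

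In PS/E3H against E3H the PS19 mice were split. PS/E3H 1 was above 3 of 3 E3H mice for Fos, Fosb, Junb, Egr2, Arc, Npas4, Nr4a1, Ier2 and Dusp1, whereas PS/E3H 2 and PS/E3H 3 were below 3 of 3 for all 10 members, and PS/E3H 4 was below 3 of 3 for 6 members and above 3 of 3 for Ier2 and Dusp1. Fos, for example, stood at 28.9, 27.9 and 21 CPM in E3H and 50.2, 9.69, 13 and 27.5 CPM in PS/E3H mice. Arc stood at 160.0, 125 and 123 CPM and 205, 45.3, 46.6 and 107 CPM. Of the 10 members, 9 differences were below 0 with a median of -0.19 (0 over all genes to 2 decimals), 0 passed after adjustment in edgeR or DESeq2, and 1 (Egr1, -0.78, SE 0.32, adjusted p = 0.186) had an unadjusted p under 0.05 in edgeR. Over all 21251 genes 5.37% passed and 21.4% had an unadjusted p under 0.05. In 0 of 10 members were the groups separate, against 19.3% of all genes. Without PS/E3H 1, 5 of 10 passed and were lower (Egr1 -1.15, Nr4a1 -1.13, Arc -1.05, Fosb -0.77 and Npas4 -0.73, adjusted p from 0.00906 to 0.0412), so the count in this line rests on that mouse. The share of all genes that passed without PS/E3H 1 is not given here. PS/E3H 1 held 20981 counts of Xist, a total of 72693566 counts and a mitochondrial share of 8.3%, all within the range of the other mice. E2H 2, the other very high mouse, had the highest mitochondrial share of the 21 at 10.9% (9.25% in the next) and the lowest TMM factor at 0.927 (0.973 in the next), and the part of this in its levels was not tested.

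In PS/E4H against E4H, 1 of 10 members was below 0, with a median of 0.28 against 0 over all genes to 2 decimals, and 0 of 10 had an adjusted or unadjusted p under 0.05 in edgeR, while DESeq2 also called 0. Of all 20844 genes, 15.6% passed, 30.1% had an unadjusted p under 0.05 and 28.8% had separate groups, which 0 of 10 members did. Fos stood at 21.8, 18.3 and 9.01 CPM in E4H and 29.8, 34.8, 11.1 and 39.8 CPM in PS/E4H mice, a difference of 0.81 (95% interval -0.07 to 1.7). Dusp1 stood at 28.1, 30.7 and 16.3 CPM and 45, 43.8, 19 and 49.9 CPM, a difference of 0.65 (-0.03 to 1.33). In each of the 2 groups replicate 3 was the lowest mouse for Fos, Junb, Egr1, Egr2, Arc, Npas4, Nr4a1, Ier2 and Dusp1. The sign in this line depended on which mice were kept. With the 2 E4H and 2 PS/E4H mice without Y-linked counts, 7 of 10 members were below 0 and the median was -0.35, with Egr1 at -0.65 (adjusted p = 0.0729) and Fos at 0.19. Without PS/E4H 3, Fos (1.09, adjusted p = 0.0243) and Dusp1 (0.89, adjusted p = 0.0161) passed and were higher.

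**Figure D3:**
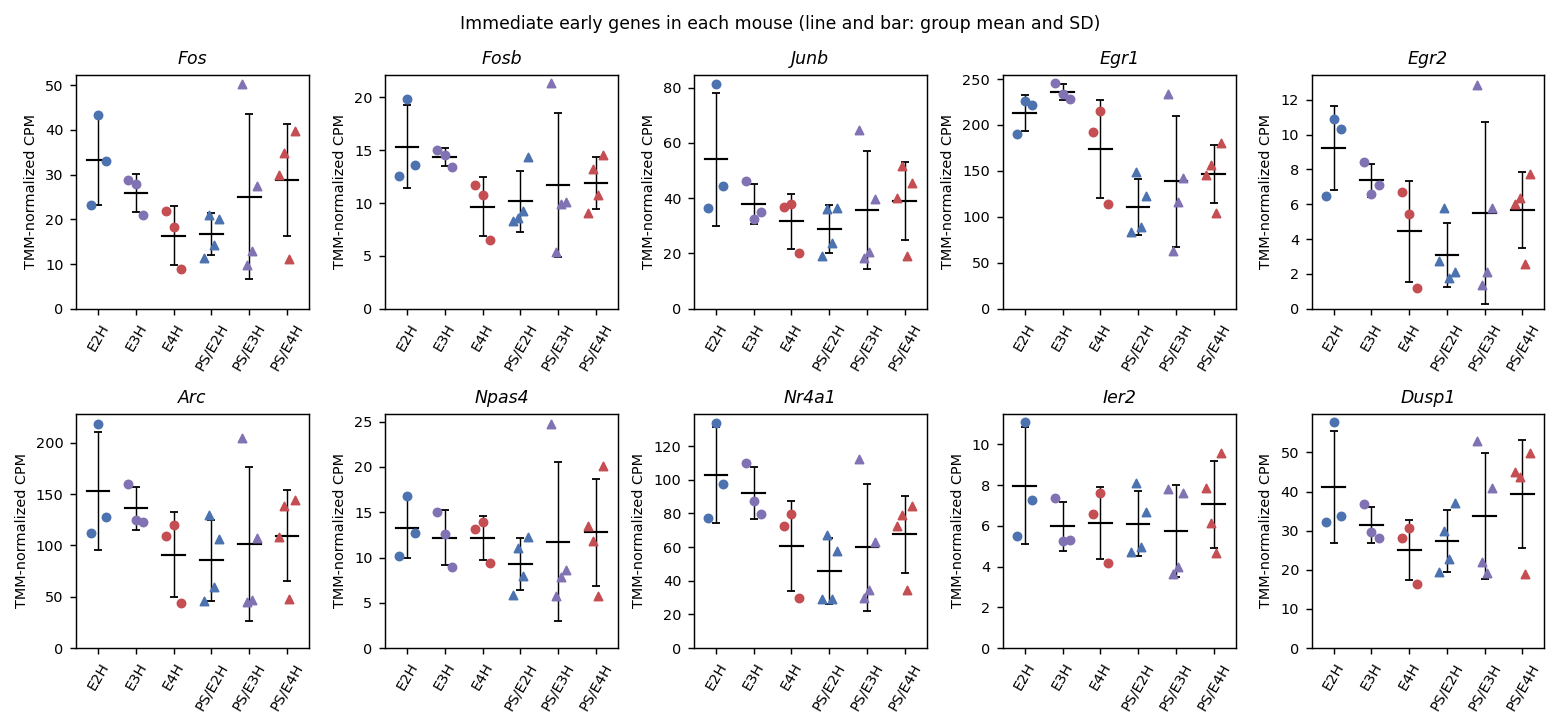
TMM-normalized CPM of each gene (vertical axes start at 0) in every mouse of the 6 groups, with circles for parental and triangles for PS19 mice, and the group mean with its SD. Egr1 runs from 62.4 to 246 CPM, PS/E3H 1 is the highest PS/E3H mouse for every gene, and E4H 3 lies below the other 2 E4H mice for every gene.

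Whether the difference between PS19 and parental mice itself differed between APOE lines was tested as an interaction over all 21 mice. In each of the 3 interactions 0 of 10 members passed, as did 0% of all 22863 genes in edgeR, and DESeq2 called 0 of 10 members. Between the APOE4 and APOE2 lines, 5 of 10 members (Fos, Junb, Egr2, Nr4a1 and Dusp1) had an unadjusted p under 0.05, where 11.4% of all genes did, and Fos differed most clearly (1.82, 95% interval 0.48 to 3.15, adjusted p = 0.294). Among the 17 mice without Y-linked counts that number was 0 of 10, and it was 1 without E2H 2, 1 without E4H 3 and 2 without PS/E2H 1, PS/E2H 3, PS/E4H 2 or PS/E4H 4, each left out alone. Between APOE4 and APOE3, 0 of 10 had an unadjusted p under 0.05 (2.98% of all genes), or 6 of 10 without PS/E3H 1, with Egr1 at 0.52 (-0.36 to 1.40). Between APOE2 and APOE3 it was also 0 of 10 (6.80% of all genes), with Egr1 at -0.17 (-1.05 to 0.70). For the fits that left out mice, the share of all genes is not given here.

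Because the 10 genes moved together from mouse to mouse, each was also set against each other gene within the same mouse. This takes out a rise or fall of equal log2 size in both and does not depend on library scaling. A shared swing that is larger in 1 of the 2 genes stays in the ratio, and the within-group SD of log2 CPM ran from 0.46 (Ier2) to 0.95 (Egr2). The part of such swings in the ratios was not tested. For each of the 45 pairs the log2 ratio was compared between PS19 and parental mice within lines, by a two-sided exact permutation test over all 42875 relabellings, with adjustment over 45 pairs. The ratio differed in 12 pairs with adjusted p under 0.05, and 10 of these held Egr1 or Nr4a1 as the member that was lower relative to its partner. Egr1 was lower in 6 of 6 such pairs (against Fos, Fosb, Junb, Npas4, Ier2 and Dusp1) and Nr4a1 in 4 of 4 (against Fos, Junb, Ier2 and Dusp1), while Dusp1 was higher in 4 of 4. A ratio shows unequal change and not which of the 2 genes changed. The 45 pairs reuse the same 10 genes, so pairs that hold the same gene are not independent. Ratios of other genes were not tested, so no share over all gene pairs can be set beside the 12.

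The clearest pair was Egr1 with Ier2. The CPM of Egr1 per CPM of Ier2 was 34.5, 20.3 and 30.6 in E2H, 33.3, 44.6 and 43.2 in E3H and 29.3, 28.3 and 27.3 in E4H mice. It was 17.6, 18.4, 18 and 18.4 in PS/E2H, 29.8, 17.1, 29.1 and 18.7 in PS/E3H and 18.5, 25.4, 22.5 and 18.9 in PS/E4H mice. The lowest parental value was that of E2H 2, and 8 of 12 PS19 mice were below it. The mean of the 3 line differences was -0.61 on the log2 scale (exact permutation p = 2.33e-05, the smallest these relabellings can give, adjusted p = 0.00105), to 65.4% of the parental ratio. It was -0.62 in the APOE2 line, -0.80 in APOE3 and -0.42 in APOE4.

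Nr4a1 against Dusp1 gave the second clearest shift. The ratio was 2.39, 2.31 and 2.88 in E2H, 2.99, 2.95 and 2.84 in E3H and 2.58, 2.59 and 1.83 in E4H mice. In PS19 mice it was 1.51, 2.25, 1.27 and 1.55 in PS/E2H, 2.12, 1.37, 1.8 and 1.54 in PS/E3H and 1.61, 1.81, 1.8 and 1.7 in PS/E4H. The lowest parental value was that of E4H 3, the parental mouse with Y-linked counts, and 10 of 12 PS19 mice were below it. The mean shift was -0.62 (exact permutation p = 9.33e-05, adjusted p = 0.0021), with -0.65, -0.80 and -0.41 in the APOE2, APOE3 and APOE4 lines. Egr1 against Dusp1 shifted by -0.71 (exact permutation, adjusted p = 0.0049), Fos against Nr4a1 by 0.43 (adjusted p = 0.00603) and Fosb against Egr1 by 0.46 (adjusted p = 0.0145). Among the 17 mice without Y-linked counts 17 of 45 pairs passed, 9 of them among the 12 above. Egr1 against Fos (exact permutation, adjusted p = 0.106), Junb (0.075) and Npas4 (0.0575) did not pass there. Of the 8 pairs that passed only among those 17 mice, 5 held Egr2 as the lower member (against Fos, Fosb, Junb, Ier2 and Dusp1). These ratios were examined after the levels had been seen.

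**Figure D4:**
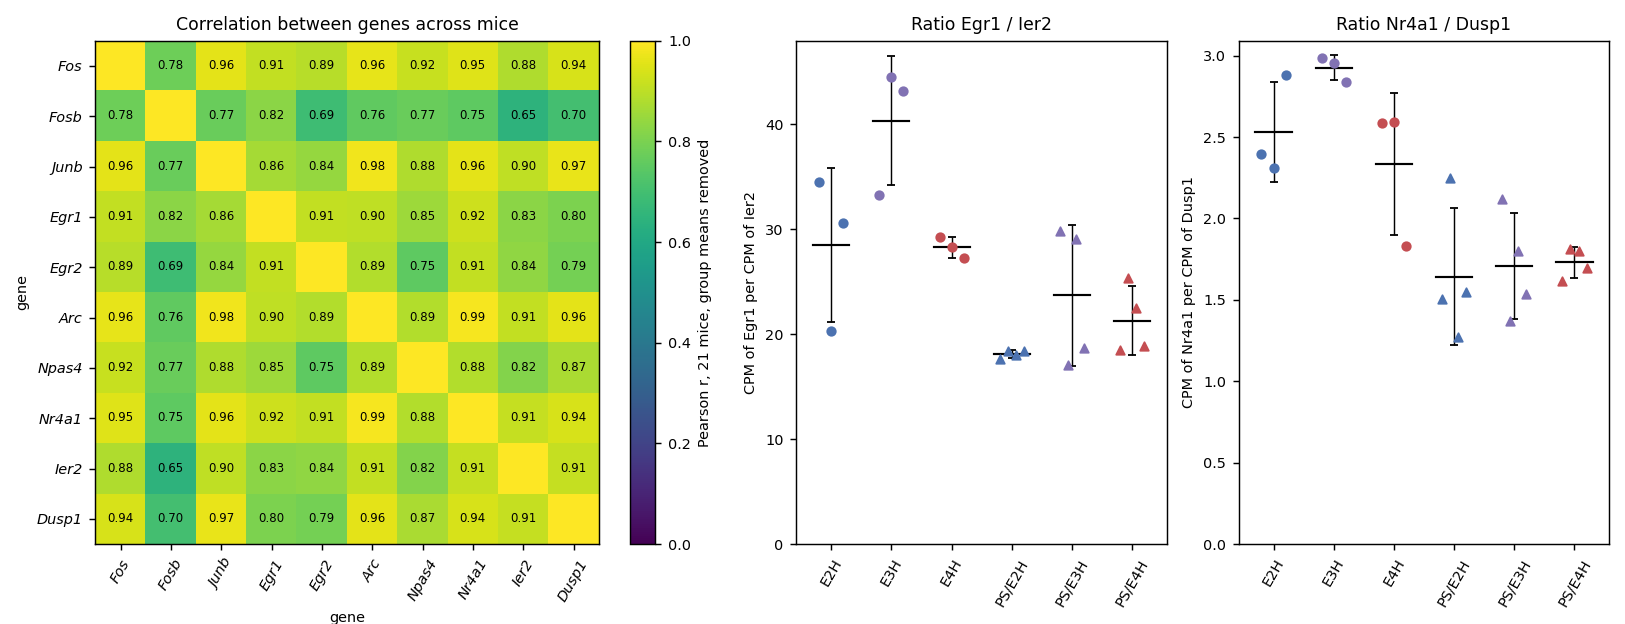
Left, Pearson r between each 2 genes over 21 mice after removal of group means, from 0.65 (Fosb with Ier2) to 0.99 (Arc with Nr4a1). Middle and right, the CPM ratios Egr1 to Ier2 and Nr4a1 to Dusp1 in every mouse by group, with mean and SD; 8 of 12 and 10 of 12 PS19 mice (triangles) lie below every parental mouse (circles).

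Between APOE genotypes without tau, 0 of 10 members passed in edgeR in any of the 3 comparisons, and DESeq2 also called 0. E2H against E3H had 0 of 10 with an unadjusted p under 0.05 (14.1% of all genes did, and 0.178% passed after adjustment), with a median of 0.23. E4H against E3H had 3 of 10 (Fos -0.66, Fosb -0.57 and Egr1 -0.44), 9 below 0 and a median of -0.50, where 6.67% of all genes had an unadjusted p under 0.05 and 0.162% passed. E4H against E2H had 4 of 10 (Fos -1.01, Junb -0.76, Dusp1 -0.71 and Fosb -0.66), all 10 below 0 and a median of -0.72, with 12.4% and 0.216% of all genes. The mean Fos level was 33.3 ± 10.1 CPM (SD, n = 3) in E2H, 25.9 ± 4.3 in E3H and 16.4 ± 6.6 in E4H mice. Without E4H 3, the medians of the E4H comparisons were -0.23 against E3H and -0.44 against E2H, 0 of 10 passed in edgeR, and 5 and 2 members had an unadjusted p under 0.05. The unadjusted count of E4H against E3H was 6 without E4H 1, 6 without E4H 2, 1 without E3H 1 and 1 without E3H 2. That of E4H against E2H was 1 without E2H 2 and 6 without either E2H 1 or E4H 2, and that of E2H against E3H was 5 without E2H 1. For these fits without 1 mouse, the share of all genes is not given here. The 3 comparisons share their control groups with each other.

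Genotypes were compared in the same way among PS19 mice. These were taken at paralysis, which the paper reports came later in PS/E3H than in PS/E2H and PS/E4H mice. APOE genotype in these comparisons, and in the interactions above, therefore cannot be told apart from the age reached. In PS/E2H against PS/E3H 0 of 10 members had an unadjusted p under 0.05 (11.7% of all genes, 0.113% passing after adjustment), with 9 below 0 and a median of -0.32. In PS/E4H against PS/E3H it was 0 of 10 (6.51% and 0.0197%), with 0 below 0 and a median of 0.12, whereas without the PS/E4H mice that had Y-linked counts 9 were below 0 and the median was -0.10. In PS/E4H against PS/E2H 2 of 10 had an unadjusted p under 0.05 (Fos 0.79 and Egr2 0.87), where 12.3% of all genes did and 0.119% passed, and all 10 were above 0 with a median of 0.45. The 2 became 7 without PS/E4H 3, 4 without PS/E2H 2, 3 without PS/E2H 4, and 0 without PS/E2H 1, PS/E2H 3, PS/E4H 1, PS/E4H 2 or PS/E4H 4, each left out alone. The share of all genes in these fits without 1 mouse is not given here, so these counts show only how far the number of members moved. Neither edgeR nor DESeq2 called a member in these 3 comparisons. Group means of Egr1 ran 111 ± 30.8 CPM in PS/E2H, 139 ± 71.4 in PS/E3H, 147 ± 31.8 in PS/E4H, 174 ± 53.1 in E4H, 213 ± 19.5 in E2H and 236 ± 8.86 in E3H (mean ± SD, n = 4 for PS19 and n = 3 for parental groups), and neighbours in this order overlapped except E2H with E3H.

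Other inducible early genes did not follow one direction. Of 29 on the list, all tested in the pooled fit, 7 fell and 4 rose, with a median of -0.02 against -0.01 over all genes, of which 21% passed and 9.63% passed and were lower. Those that fell were Nr4a3 (-0.85, SE 0.13, adjusted p = 5.35e-05) and Nr4a2 (-0.44), nuclear receptors like Nr4a1, Egr3 (-0.54) of the EGR family, Fosl2 (-0.43) of the FOS family, Plk3 (-0.30), Ier5 (-0.27) and Plk2 (-0.19), a kinase that scales synapses. The 4 that rose were Atf3 (1.56, SE 0.23, adjusted p = 2.82e-05), a factor induced by nerve injury and stress, Maff (1.49), Gadd45g (0.67) and Jun (0.28), which pairs with Fos and Junb products in AP-1. Egr4 (-0.42, adjusted p = 0.24) and Dusp6 (-0.21, adjusted p = 0.23) were among the 18 that did not pass.

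Nr4a3 separated the groups more fully than any of the 10 members. It stood at 30.3, 33 and 37.4 CPM in E2H and 14.9, 16, 14.3 and 18.4 CPM in PS/E2H mice, a difference of -1.08 (SE 0.13, edgeR adjusted p = 0.00593). In E3H it was 41.6, 34.2 and 36.6 CPM and in PS/E3H 29, 11.5, 15.6 and 16.1 CPM (-1.06, adjusted p = 0.0344). In E4H it was 30, 29 and 20.1 CPM and in PS/E4H 16.8, 20.5, 20.5 and 21.2 CPM (-0.42, adjusted p = 0.071, not passed). The E2H and E3H groups did not overlap with their PS19 counterparts, including PS/E3H 1. Single lines also showed a fall of Egr3 (-0.92) and Ier5 (-0.37) in PS/E3H and of Nr4a2 (-0.42) in PS/E4H. Atf3 rose in PS/E3H (1.56) and PS/E4H (2.34), as did Maff (1.13 and 1.76), and Klf2 (0.94), Gadd45g (0.80), Tiparp (0.53) and Jun (0.26) rose in PS/E4H.

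**Figure D5:**
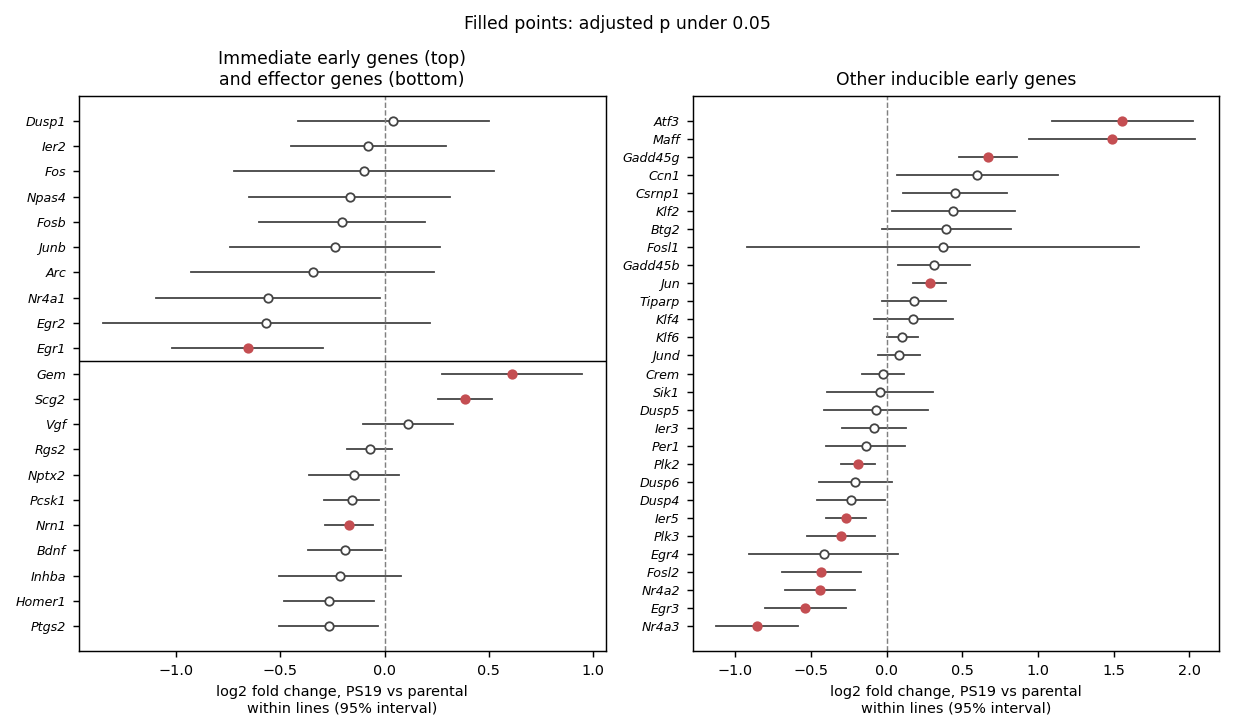
Log2 fold change of PS19 against parental mice within lines, with 95% intervals, for the 10 members and 11 effector genes (left) and 29 other inducible early genes (right), each list sorted by value. Filled points passed at an adjusted p under 0.05: Egr1 (-0.66), Gem (0.61), Scg2 (0.39) and Nrn1 (-0.17) on the left, and 4 higher and 7 lower genes on the right, from Atf3 (1.56) to Nr4a3 (-0.85).

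Effector genes of the later wave act at the synapse and in secretion. Of 11 on the list, 3 passed, where 21% of all genes did, and 2 of them rose, Gem (0.61), a small GTPase that limits calcium channels, and Scg2 (0.39), a granin of dense-core vesicles, and 1 fell, Nrn1 (-0.17), a neurite growth factor. The median was -0.16, and Bdnf, Homer1, Nptx2, Ptgs2, Inhba, Pcsk1, Vgf and Rgs2 did not pass. Gem (1.05) and Scg2 (0.50) also rose in PS/E4H against E4H alone. Of 18 upstream genes, 9 fell and 1 rose, with a median of -0.16, where 9.63% of all genes passed and were lower. Among those that fell were Crtc1 (-0.35), the CREB coactivator, the calcium/calmodulin kinases Camk2a (-0.32), Camk4 (-0.27) and Camk2b (-0.15), the acetyltransferase Crebbp (-0.22), and Mef2c (-0.23), Mef2d (-0.18) and Srf (-0.17). The kinase Rps6ka1 (0.28) rose. In single lines Crtc1 fell in PS/E3H (-0.47) and PS/E4H (-0.45), and Mef2c (-0.46), Crebbp (-0.31), Mef2d (-0.29), Rps6ka2 (-0.28) and Camk2b (-0.25) fell and Rps6ka5 (0.23) rose in PS/E4H.

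Markers of cell types moved with the PS19 genotype as well, in a fit where 21% of all genes passed. Of 8 neuron markers 4 fell (Snap25, Syt1, Stmn2 and Slc17a7) and 2 rose (Gad1 and Gad2), and their summed level was 5921 to 6475 CPM in parental and 5187 to 6371 CPM in PS19 mice. Of 5 markers of forebrain excitatory neurons 4 fell, Neurod6 most (-0.69), with sums of 257 to 342 and 178 to 272 CPM. Of 4 dentate gyrus markers 2 fell, with sums of 38.3 to 51.6 and 28.7 to 44 CPM. Rises were seen in 6 of 7 microglia markers (sums of 364 to 481 and 536 to 983 CPM), 6 of 6 astrocyte markers (2594 to 3184 and 4078 to 6067 CPM) and 3 of 5 oligodendrocyte markers (4577 to 6807 and 5905 to 8848 CPM). Of 6 endothelium markers Pecam1 rose and Kdr fell, with sums of 103 to 142 and 96.8 to 145 CPM. Of 5 blood genes, hemoglobins and Alas2, 0 passed in edgeR and 5 had an unadjusted p under 0.05, all 5 below 0 with a median of -0.97, and the median was -1.72 in PS/E2H against E2H. Their sums were 190.1 to 778 CPM in parental and 29.1 to 379 CPM in PS19 mice, with the highest sum in E2H 1. Among 12 glucocorticoid response genes, which rise with circulating stress hormone, 11 rose, including Sgk1 (1.30), Fkbp5 (1.03), Tsc22d3 (0.54) and Cdkn1a (1.76). The part of these marker changes in the fall of Egr1 and in the lower levels of the members in PS/E2H was not tested.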

How the data were processed

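The authors prepared stranded poly(A) libraries from pulverized forebrain and sequenced paired reads. Their processing notes and methods name cutadapt for trimming, HISAT2 for alignment to the mouse genome (GRCm38.p5), StringTie for assembly and quantification, and DESeq2 and edgeR for testing. The deposited count table holds whole-number counts per gene without normalization, and how they were taken from StringTie is not given in the sources used here. The deposited FPKM table was scaled by the authors for length and library size.

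Groups and replicate numbers came from sample titles, and 0 columns were unused. Counts were tested with edgeR 4.0.16 in R 4.3.3 (TMM, filterByExpr with minimum count 10 and minimum total 15, quasi-likelihood F test, Benjamini-Hochberg over all genes tested, limit 0.05, no limit on fold change). Each comparison of 2 groups used its own mice. The pooled fit used APOE line plus tau genotype over 21 mice, and interactions used 6 group means. The standard error is the absolute log2 fold change over the square root of F. Log2 CPM used a prior count of 2, as edgeR scales it. DESeq2 1.42.0 and limma 3.58.1, on log2(FPKM + 1) and log2(FPKM + 0.1) for genes with at least 0.5 FPKM, were alternatives, as were DESeq2 size factors, no filter, a replicate block, 1 fit of all mice, a 2-fold limit and each mouse left out in turn. Permutation tests, ratios and motifs used pandas 2.3.3, SciPy 1.17.1 and NumPy 2.4.6 under Python 3.11.15, and figures matplotlib 3.10.9. The edgeR procedure was tested on simulated data. No 2 mice of a group had identical counts (27 pairs). Nothing states that mice of a group came from separate litters.

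The 10 genes and all gene lists were chosen with earlier results of these data known. List genes are named where they passed in the pooled fit (up to 8 per list and direction) or in a comparison of 2 groups. A few of them are not reported here. The Xist and Y-linked check, the fits built on it, the library measures and the ratios between members were added after the data had been seen.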

Additional observations from a re-analysis of the deposited data

Results flagged for a closer look

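In each of the 3 PS19 groups of 4 mice, every member was checked for a mouse far from the other 3, by the gap to its nearest neighbour over the range of the group (Dixon's criterion, limit 0.829). Of the 30 combinations, 2 exceeded it, and chance alone gives about 1 in 20. Npas4 stood at 24.8 CPM in PS/E3H 1, where the other 3 mice were between 5.8 and 8.58 CPM. Fosb stood at 14.4 CPM in PS/E2H 4, where the others were between 8.35 and 9.24 CPM. No interaction of a member passed in edgeR.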

How the results depend on the processing

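With 3 or 4 mice per group and within-group spreads, pooled over the groups, of 0.46 to 0.95 on the log2 scale, single comparisons could miss changes of the sizes printed. The fall of Egr1 in the pooled fit kept its call in 29 of 29 alternatives without a fold limit, from -0.86 to -0.58, with adjusted p from 0.00161 to 0.0206. The number of members that passed in PS/E2H against E2H (0) became 3 with DESeq2, 1 (Egr1) with limma on log2(FPKM + 1), 1 on log2(FPKM + 0.1) and 2 among mice without Y-linked counts, and was 0 to 2 over fits without 1 mouse. In PS/E3H against E3H those fits gave 0 to 5, in PS/E4H against E4H 0 to 2, and in the pooled fit 1 to 2, while a 2-fold limit gave 0 and the 17 mice without Y-linked counts gave 2 (Egr1 and Nr4a1). Correlations passed in 44 to 45 pairs and ratios in 7 (without E4H 2) to 16 pairs when 1 mouse was left out, and 7 of the 12 ratio pairs passed in every setting run. The cause of these moves was not tested. Shares over all genes are given for the edgeR fits with every mouse kept, and not for the alternatives. Among the other comparisons of 2 groups and the interactions, 0 members passed in every alternative.

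Groups share replicate numbers, but over all 22863 genes same-numbered mice did not deviate together (mean r = -0.009 over 48 pairs, highest 0.096), so the numbers were not taken as pairs. For the 10 members alone this was not tested. Their mean level in replicate 3, in SD, was low in E4H (-1.4), PS/E2H (-1.01), PS/E3H (-1.09) and PS/E4H (-1.14). It was not low in E2H (0.66) or E3H (0.16). A fit with the replicate block gave 6 members in PS/E2H against E2H (Fos, Junb, Egr1, Arc, Nr4a1 and Dusp1) in place of 0, and moved no other count of members by over 1.5 times. In a comparison of so few mice the block leaves little to estimate the spread from, and E2H has no replicate 4. The share of all genes that passed in this fit is not given here, so the 6 are not read as a stronger effect.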
